A study of Homo sapiens with 2 samples.

Results

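The stretches described here are the autosomal regions of at least 1 Mb in which no PROX1 peak was listed. The homeobox protein PROX1 is a transcription factor known for specifying lymphatic endothelium, and it acts in liver and lens as well as in a part of colorectal tumours. ChIP-seq, in which chromatin bound by a protein is precipitated and sequenced, mapped it in SW480R, a subpopulation of the established human colon cancer line SW480. For the PROX1 library, 5 µg of goat antibody was used, and 3 immunoprecipitations were pooled and then sequenced. It was set against 1 library of input DNA from SW480R cells, made without antibody. Peaks of chromosomes 1 to 22 were ordered by start, and every stretch of 1000000 bp or more from the furthest end so far to the next start was taken. This gave 362 gaps among the 22894 intervals between neighbouring autosomal peaks. The gaps were chosen by the positions of the peaks, so their number, length and spread are a description with no test. With 1 library of each kind there was no replicate spread, and intervals given for shares of gaps, chromosomes and peaks are exact (Clopper-Pearson) 95% binomial intervals. They count neighbouring features as independent and cover counting error only. Coordinates are on hg18, as the list gives them, from the end of the peak before a gap to the start of the peak after it.

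Several features of human chromosomes bear on where peaks can be listed. Centromeres are built of satellite repeats that were largely missing from this assembly, and the variable bands beside some of them, as on chromosomes 1, 9 and 16, are repeat-rich heterochromatin. The short arms of the acrocentric chromosomes (13, 14, 15, 21 and 22) carry ribosomal gene arrays and satellites. Giemsa staining divides the rest into light bands, which tend to be gene-rich and replicate early, and dark bands, which tend to be AT-rich, gene-poor and late-replicating. In the band table used here, stain runs from gneg (light) through gpos25, gpos50 and gpos75 to gpos100 (darkest), with acen for centromeres, gvar for variable heterochromatin and stalk for acrocentric stalks. Only peaks are listed, so the tag level inside a gap is not known. A gap therefore means that no place in it reached the list, whose lowest fold over input was 13.03.

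The gaps were few but took up a large part of the autosomes. They made up 1.58% of the intervals between neighbouring autosomal peaks, whose median length was 25.9 kb, and 29.9% of the summed interval length. Together they spanned 827.4 Mb, or 28.9% of the 2867.7 Mb of the autosomes. Most were short: the median gap was 1.61 Mb (interquartile range 1.23 to 2.42), and 227 of 362 (62.7%) were under 2 Mb. The long tail held 61 gaps of 3 Mb or more, 22 of 5 Mb or more and 5 of 10 Mb or more, up to 28.3 Mb. The 10 longest gaps held 15.3% of the total gap length.

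**Figure D1:**
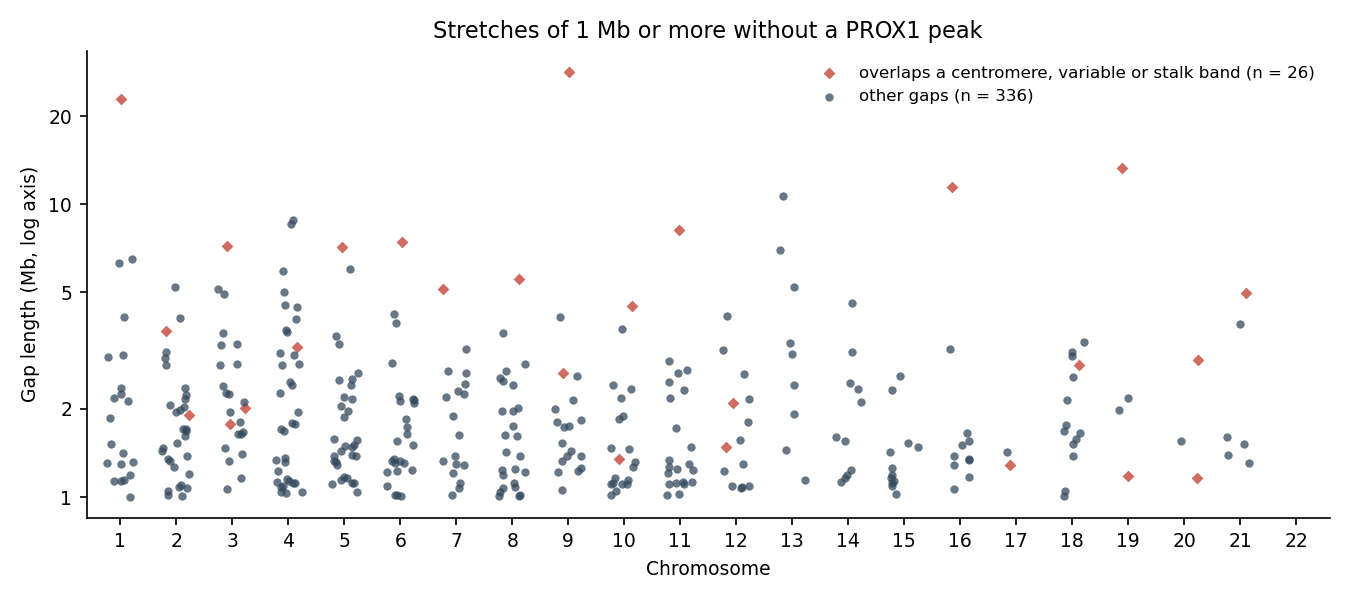
Each point is 1 gap, placed by chromosome (x axis) and length in Mb (log y axis); red diamonds are the 26 gaps that overlap a centromere, variable or stalk band and dark circles the other 336. Red diamonds hold the 4 longest gaps, on chromosomes 9, 1, 19 and 16, chromosome 4 has the most points, and chromosome 22 has none.

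The cut at 1 Mb fell inside a continuous range of lengths. Just inside it were gaps of 1004.0 kb in band q41 of chromosome 1 (212872291 to 213876291), 1005.1 kb on chromosome 2 (162908711 to 163913831) and 1006.7 kb on chromosome 6 (12457151 to 13463811). Just outside were 999.4 kb on chromosome 9 (80377291 to 81376691), 998.7 kb on chromosome 17 (47082851 to 48081531) and 997.1 kb in band q43 of chromosome 1 (238257091 to 239254151).

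Gaps were spread unevenly over the chromosomes. Chromosome 4 had the most, with 36 gaps that spanned 96.1 Mb and 50.2% of its length. Chromosomes 2 and 5 followed with 32 gaps each, spanning 25.8% and 36.2% of their length. Chromosome 22 had no gap, chromosome 17 had 2 (3.44% of its length) and chromosome 20 had 3 (9.06%). Counted over placed sequence, meaning bases that belong to a contig of the assembly, chromosome 4 had 19.2 gaps per 100 Mb and chromosome 17 had 2.57. Chromosome 13 combined few gaps with long ones: it had 9 (9.42 per 100 Mb placed) with a median of 3.07 Mb, and they held 37.4% of its placed sequence. On chromosome 4 the median gap was 1.88 Mb, and the gaps held 49.5% of the placed sequence.

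The longest gaps either crossed a centromere with much missing sequence or lay in DNA that was all or nearly all placed. The longest, at 38672911 to 66982871 of chromosome 9, ran from band p13.1 across the centromere into the variable band q12, and 9.06 of its 28.3 Mb were placed. On chromosome 1, the gap at 120432291 to 143297911 (p12 to q21.1) was 22.9 Mb long with 2.08 Mb placed. The gap of chromosome 16 at 33842551 to 45280031 (p11.2 to q11.2) was 11.4 Mb long with 1.54 Mb placed. The gap of chromosome 19 at 19640171 to 32976171 was 13.3 Mb long, and 5.34 Mb of it was placed. It took in the whole of band 19p12, known for its clusters of KRAB zinc finger genes, which encode DNA-binding repressors. Also across centromeres were the gaps at 47977091 to 56161731 of chromosome 11 (8.18 Mb, 4.98 placed), 56848931 to 64295671 of chromosome 6 (7.45 Mb, 4.30 placed) and 90223491 to 97411491 of chromosome 3 (7.19 Mb, 2.79 placed).

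Missing sequence lay in 46 gaps. All bases were placed in 316 of the 362 gaps (87.3%), and 354 held at least 1 Mb of placed sequence. In 15 gaps less than 50% of the length was placed. The 26 gaps that overlapped acen or gvar bands held 97.2% of the unplaced bases found in any gap, with a median length of 3.47 Mb, against 1.55 Mb for the other 336 gaps. Without unplaced bases the gaps covered 727.9 Mb, or 27.1% of the 2681.4 Mb of placed autosomal sequence.

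**Figure D2:**
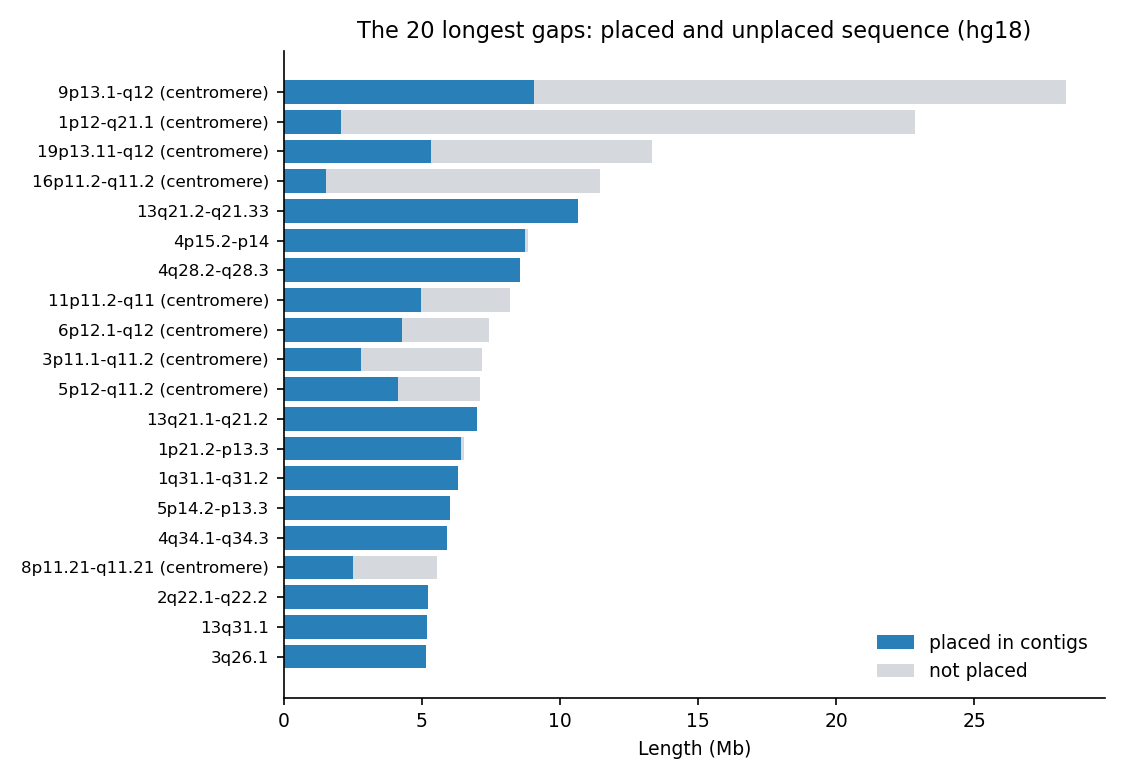
The 20 longest gaps from top to bottom, named by chromosome and by first and last band; blue is the length in Mb placed in contigs of hg18 and grey the length not placed. The gap on 9p13.1-q12 had 9.06 Mb placed of 28.3, while that on 13q21.2-q21.33 had all 10.7 Mb placed.

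The gap with the most placed sequence lay on the long arm of chromosome 13. It ran from 59481831 to 70140551, bands q21.2 to q21.33, and all of its 10.7 Mb was placed. Its borders were peaks of 24 tags (fold 24.06) and 39 tags (fold 19.55). The first of these, at 59481731 to 59481831, was the only peak between it and the gap before, which ran from 52483091 to 59481731 and was 6.999 Mb long. These neighbours therefore spanned 17.7 Mb with 1 peak inside. Bands q21.31 and q21.32 were inside the longer gap from end to end. Band 13q21.32 is the one to which the protocadherin gene PCDH9, a neuronal adhesion gene, is assigned.

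The other gaps among the 10 with the most placed sequence, outside centromeres, lay mainly in dark bands as well. On chromosome 4, the gap at 27018591 to 35874371 was 8.86 Mb long, with 8.73 Mb placed and 85.6% of it in dark bands, and took in all of 4p15.1, the band of the protocadherin gene PCDH7. A second gap of chromosome 4, at 130763931 to 139332911, was 8.57 Mb long and 93.7% dark. On chromosome 1, the gap at 101758611 to 108280771 (6.52 Mb, 6.42 placed, 76.3% dark) took in all of 1p21.1, the band of the cartilage collagen gene COL11A1 and of the amylase genes. On chromosome 5, the gap at 24399831 to 30429031 (6.03 Mb, 76.3% dark) took in all of 5p14.1, the band of the neuronal cadherin gene CDH9. The remaining members of this group were 184448591 to 190766991 of chromosome 1 (6.32 Mb, 72.0% dark) and 175872351 to 181776751 of chromosome 4 (5.90 Mb, 79.7% dark). Genes were assigned to bands from general knowledge after the gaps were seen, no hg18 gene annotation was used, and no gene was tested.

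Of the 811 autosomal bands, 49 (6.04%) lay wholly inside a gap. These were 25 of 44 acen bands, 2 of 16 gvar bands, 15 of 389 gneg bands, and 1 of 85 gpos25, 1 of 112 gpos50, 2 of 85 gpos75 and 3 of 75 gpos100 bands. The 3 gpos100 bands were 4p15.1 (7.6 Mb), 1p21.1 (5 Mb) and 5p14.1 (4.6 Mb). Some of the acen bands, such as 1q11 and 9q11, had no placed bases, so no peak could be listed in them. Bands before the first peak of a chromosome are in no gap. Counted by peaks, 73 of the 811 bands held none, among them 32 of 44 acen, 12 of 16 gvar and 5 of 5 stalk bands.

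The longest gap of each chromosome was marked as a possible centromere, and it overlapped centromere bands on 13 of 22 chromosomes (59.1%, interval 36.4 to 79.3). These were chromosomes 1, 3, 5 to 11, 16, 19, 20 and 21. The mark failed on 8 chromosomes, and chromosome 22 had no gap to mark. On chromosomes 2, 4, 12, 17 and 18 a gap did overlap the centromere bands, but it was only the 3rd, 10th, 5th, 2nd and 4th longest of its chromosome. On chromosome 4 the centromere gap was 3.25 Mb long, with 0.249 Mb placed. The longest gaps of these chromosomes lay elsewhere: in 2q22.1-q22.2 (138990611 to 144200591, 5.21 Mb), in 4p15.2-p14 as above, in 12q14.1 (57167891 to 61311771, 4.14 Mb), in 17q22 (49357111 to 50781271, 1.42 Mb) and in 18q21.33-q22.1 (59784371 to 63178491, 3.39 Mb). Unplaced bases, in which no peak can be listed, count in these lengths. With gaps ranked by placed sequence, the longest overlapped the centromere on 4 chromosomes.

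On 3 of the acrocentric chromosomes no gap could hold the centromere. A gap needs a peak on both sides, and on chromosomes 13, 14 and 15 the first peak lay beyond the centromere bands, at 18470231, 19871371 and 19112271. Their longest gaps were that of 13q21, one in 14q31.1-q31.3 (80937791 to 85540311, 4.60 Mb) and one in 15q21.1 (43536311 to 46119831, 2.58 Mb). On chromosome 22 the first peak lay within the centromere band q11.1, at 16127291. On chromosome 21 a single peak at 10201171, within the centromere band p11.1, gave a gap of 4.97 Mb, at 10201231 to 15172131. That peak had 13 tags and a fold of 13.03, the lowest values in the list. Only through it did a gap of chromosome 21 overlap the centromere. The peak-free stretches from the start of these chromosomes were 10.2 to 19.9 Mb long, with 0.481 to 1.80 Mb placed. Chromosome ends gave another 2 stretches that the choice of gaps does not count, the last 2.37 Mb of chromosome 4 and the last 2.27 Mb of chromosome 19.

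Centromere bands were not wholly free of peaks. They held 51 peaks on 11 chromosomes, or 2.39 peaks per placed Mb, against 8.60 elsewhere on the autosomes. The spread was uneven, and most of the 51 were on chromosomes 3, 17 and 18. These held 16, 10 and 8 peaks in 1.19, 1.00 and 0.536 placed Mb of centromere band, so they were not sparse there. Over all 51 peaks the medians were 22 tags and a fold of 19.05, against 25 tags and a fold of 19.05 elsewhere on the autosomes. The most tags were 99, at 91316931 to 91316971 of chromosome 2 (fold 49.62) and at 22903111 to 22903171 of chromosome 17 (fold 33.08). The highest fold was 91.23, at 17164571 to 17164611 of chromosome 18, with 91 tags. The peak of chromosome 2 had a gap on each side, of 1.91 and 3.70 Mb.

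A larger part of the gaps than of the rest of the autosomes lay in dark Giemsa bands. Of placed bases in gaps, 55.1% were in gpos75 and gpos100 bands, against 22.7% of placed bases elsewhere, a ratio of 2.43. By stain, gpos100 held 36.0% of gap bases against 10.2% of other bases, gpos75 19.0% against 12.5%, gpos50 12.3% against 15.4%, gpos25 3.46% against 8.95% and gneg 25.1% against 52.4%. Put the other way, 56.9% of all placed gpos100 sequence lay in a gap, as did 36.1% of gpos75, 23.01% of gpos50, 12.6% of gpos25 and 15.1% of gneg. The stain was not used to choose the gaps, but peak density by stain is the same observation seen from the peaks: 3.71 peaks per placed Mb in gpos100 and 10.6 in gneg.

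**Figure D3:**
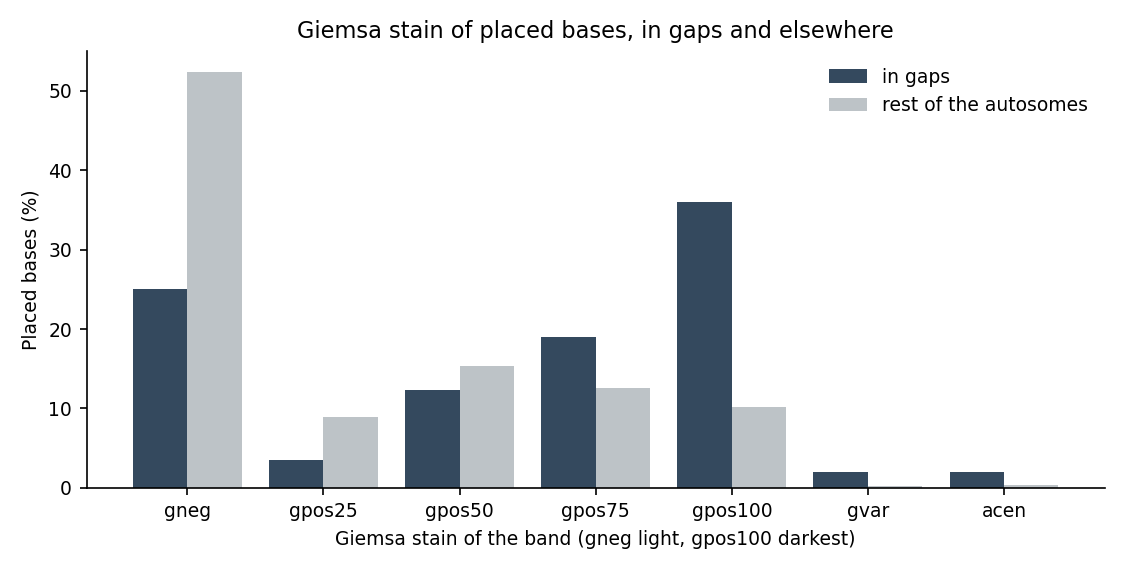
Share of placed bases (y axis, percent) by Giemsa stain of the band (x axis), with dark bars for the gaps and grey bars for the rest of the autosomes. The gap bar is the higher one for gpos75, gpos100, gvar and acen (36.0% against 10.2% for gpos100) and the lower one for gneg, gpos25 and gpos50.

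The shift to dark bands was found chromosome by chromosome. Of 21 chromosomes with gaps, 20 had a larger share of dark bases in their gaps than in the rest of the chromosome. The exception was chromosome 19, which has no gpos75 or gpos100 band in the table. The difference was 55.1 percentage points on chromosome 1, where 71.4% of gap bases and 16.3% of other bases were dark. On chromosome 7, the lowest of the 20, it was 14.6 points (51.6% against 37.0%), and the median over all 21 was 32.7 points. The share of light bases was lower in gaps on all 21.

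**Figure D4:**
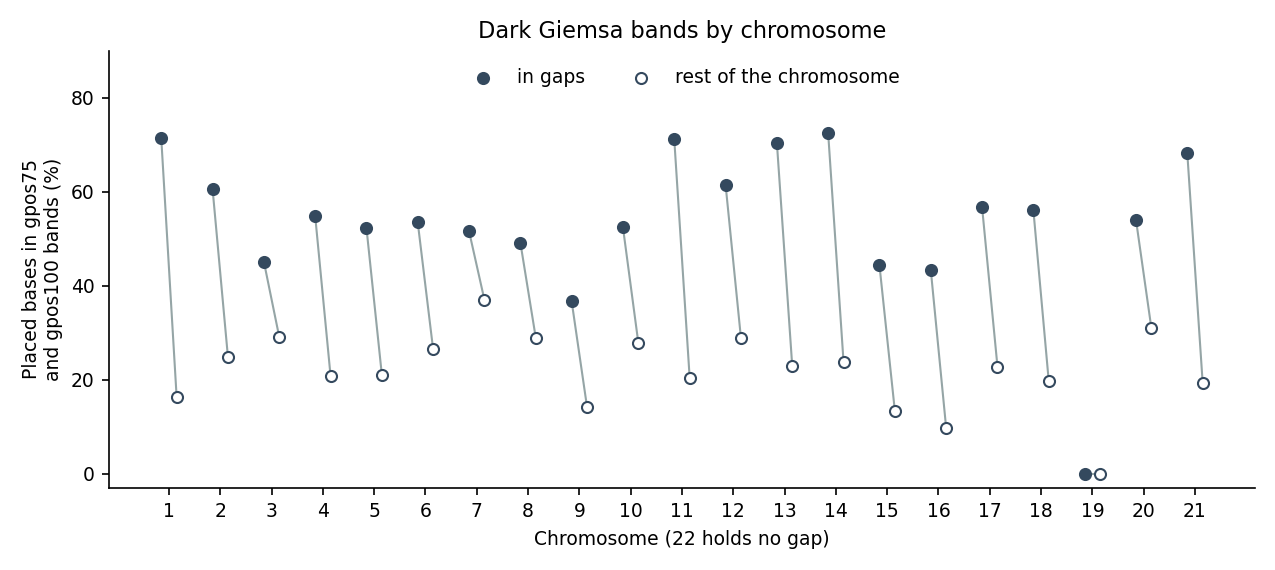
Share of placed bases in gpos75 and gpos100 bands (y axis, percent) for each chromosome (x axis), with filled circles for the gaps and open circles for the rest of the same chromosome. The filled circle is higher on 20 chromosomes, and both are at 0 on chromosome 19.

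Longer gaps were darker. More than 50% of the placed bases were dark in 184 of the 362 gaps (50.8%, interval 45.6 to 56.1). With gaps at acen, gvar and stalk bands left out, the share was 45.5% of the 220 gaps of 1 to 2 Mb (interval 38.7 to 52.3), 60.9% of the 69 gaps of 2 to 3 Mb (48.4 to 72.4) and 89.4% of the 47 gaps of 3 Mb or more (76.9 to 96.5). The intervals of the shortest and longest classes did not overlap.

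A smaller group of gaps ran against this pattern. More than 50% of placed bases were light in 90 gaps (24.9%, interval 20.5 to 29.6), and 38 gaps were light throughout. The longest of these 38 were at 61428911 to 63853851 of chromosome 7 (q11.21, 2.42 Mb), 244908031 to 247153631 of chromosome 1 (q44, 2.25 Mb) and 31268351 to 33471931 of chromosome 5 (p13.3, 2.20 Mb), picked out after their values were seen. Band 1q44 is known for a large cluster of olfactory receptor genes, which are silent in most tissues.

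Some gaps followed each other with little between them, though most did not. Of the 341 islands between consecutive gaps of a chromosome, 47 (13.8%) were a single peak and 54 held 2 to 5 peaks. The other 240 held 6 or more, and the median island had 16 peaks. Its median span was 2.14 Mb. Single peaks joined 89 gaps into 42 chains. The longest chain was the pair of 13q21, and next came 3 gaps over 8.87 Mb of 13q31.1-q32.1 (85090911 to 93957671), with 2 peaks inside. Allowing up to 5 peaks between gaps gave a chain of 5 gaps over 13.9 Mb of 5p14.3-p13.3 (19567731 to 33471931), with 8 peaks inside. The chain on 5p14 and its neighbour 5p13 took in the gap at the CDH9 band described above.

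The 1 Mb beyond a gap held more than the border peak as a rule. It held a median of 6 peaks (interquartile range 2 to 11, highest 47), the border peak included, over the 724 sides. In 97 of the 724 (13.4%) the border peak was the only one, and in 214 there were 10 or more. The mean over the sides was 7.66 peaks, and the rate over all placed autosomal sequence was 8.55 per Mb. These are not like measures. Every side counts at least its border peak by the way gaps were chosen, and the sides include unplaced bases.

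Peaks at the borders of gaps had fewer tags than other autosomal peaks, and fewer of them were strong. The 724 sides were formed by 677 distinct peaks, since 47 had a gap on both sides. Border peaks had a median of 19 tags (interquartile range 15 to 29, range 13 to 140), against 26 in the other 22239 autosomal peaks (17 to 45, range 13 to 2047). Their median fold over input was 18.04 (interquartile range 14.03 to 24.06, highest 95.24), against 19.05 (15.04 to 29.07, highest 435.08). Strong peaks are those with at least 2 times the lowest fold, that is 26.06. They made up 146 of the 677 border peaks (21.6%, interval 18.5 to 24.9) and 30.7% of the others (30.1 to 31.3), while the background over all autosomal peaks was 30.4%. A fold of 100 or more was found in 0 of 677 border peaks (interval 0 to 0.543). A limit of 3 counts for a count of 0 would allow a share of up to 0.443%. It was found in 222 of the 22239 others (0.998%, interval 0.872 to 1.14), with a background of 0.969%. The ranges of border and other peaks overlapped, and these folds and tags are the authors' own values for each peak. They rank peaks within this list only.

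Border peaks also stood alone more often, which follows in part from how gaps were chosen. No other peak lay within 10 kb of 543 of the 677 (80.2%), against 42.2% of other peaks. Among such lone peaks, a fold of 26.06 or more was found in 19.9% at borders (interval 16.6 to 23.5) and in 24.3% elsewhere (23.4 to 25.2), and these intervals overlapped slightly. Among peaks with a neighbour the shares were 28.4% (20.9 to 36.8) and 35.4% (34.5 to 36.2). Within dark bands the shares were 19.6% at borders (15.3 to 24.5) and 31.8% elsewhere (30.3 to 33.3), and within light bands 20.7% (15.5 to 26.7) and 30.7% (29.9 to 31.5). Border peaks had the lower share on 18 of 21 chromosomes, the exceptions being 8, 16 and 18, and the lower median tag count on 20 of 21, the exception being 19. Their median fold was lower on 16 chromosomes, higher on 2 (15 and 17) and equal on 3. The share was 23.8% at gaps of 1 to 2 Mb (19.9 to 28.1), 15.1% at 2 to 3 Mb (9.69 to 21.9) and 21.7% at 3 Mb or more (14.7 to 30.1), and these intervals overlapped.

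The smaller share of strong peaks at borders went with their lower tag counts. All peaks with a fold of 26.06 or more had at least 26 tags. An input of 2 tags, as worked out from the ChIP tags and the fold, also needs at least 26 tags. The reason is that every fold in the list is at least 13.03. That many were found in 203 of the 677 border peaks (29.99%, interval 26.6 to 33.6), against 50.2% of other peaks (49.6 to 50.9). Among peaks of 26 to 50 tags, a comparison chosen after seeing the data, strong peaks made up 73.4% of 143 at borders (65.4 to 80.5) and 63.2% of 6535 elsewhere (62.0 to 64.3), so that the direction turned. In the same class, 24.5% of border peaks (17.7 to 32.4) had an input of at least 2, as had 32.5% of others (31.4 to 33.7), and these intervals overlapped. With at most 50 tags, a peak with such an input cannot reach a fold of 26.06. Within this class the input share is therefore nearly the reverse of the strong share and no second comparison. Over all peaks the input shares were 9.90% at borders (7.75 to 12.4) and 23.3% elsewhere (22.7 to 23.9). Since input was inferred from the ChIP tags, these shares are bound to the tag counts and are no separate observation.

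**Figure D5:**
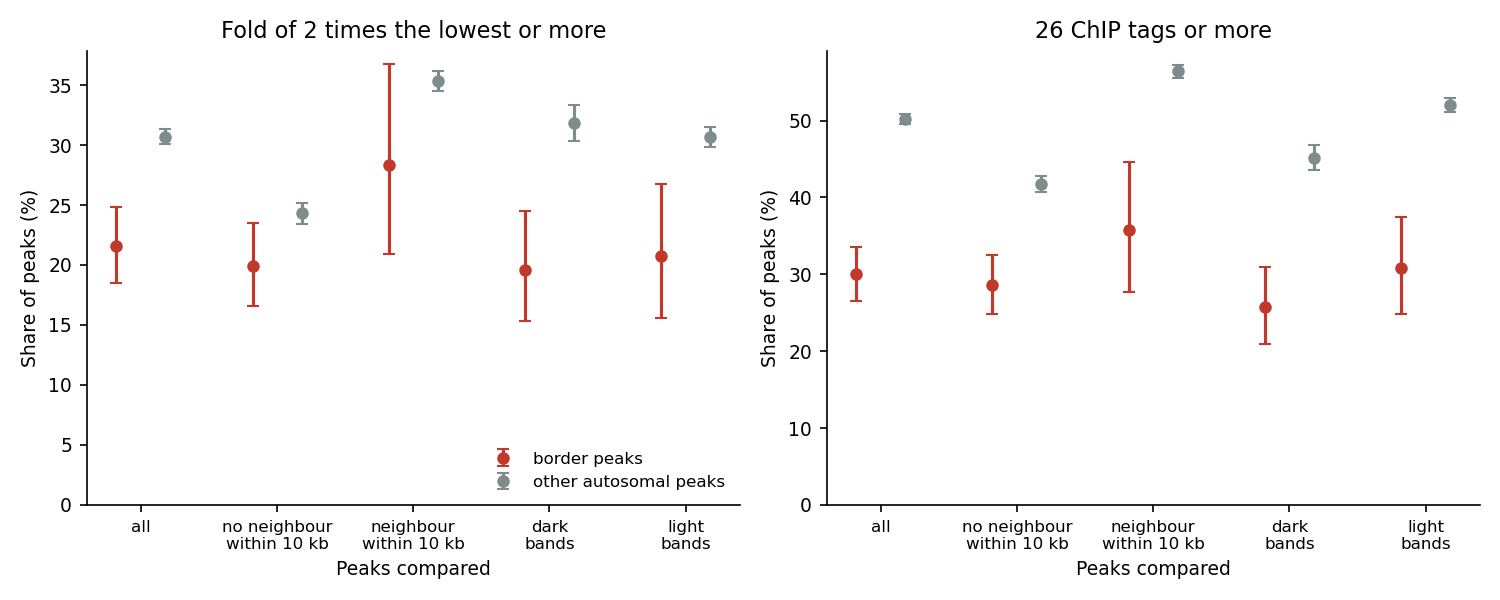
Share of peaks (y axis, percent) with a fold of 26.06 or more (left) and with 26 ChIP tags or more (right), for border peaks in red and other autosomal peaks in grey, over all peaks and within 4 subsets (x axis); bars are exact 95% binomial intervals. Red lies below grey in each pair, at 21.6% against 30.7% for fold and 29.99% against 50.2% for tags over all peaks.

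The border peak with the highest fold lay at 103761271 to 103761311 of chromosome 4, with 95 tags and a fold of 95.24, beside a gap of 1.23 Mb. It was followed by peaks of 85 tags and a fold of 85.21 on chromosome 10, at 28222371 to 28222411 and at 131330831 to 131330871. The peak at 122378471 to 122378511 of chromosome 5 had 83 tags and a fold of 83.21 and bordered a gap of 3.56 Mb. The 10th highest bordered the gap of 13.3 Mb on chromosome 19, at 32976171 to 32976211, with 75 tags and a fold of 75.19. The others of the 10 highest were on chromosomes 6, 8, 10 and 12, with folds from 76.19 to 82.20. The most tags were 140, at 10193071 to 10193111 of chromosome 6, where the fold was 23.39, and 131, at 18917691 to 18917731 of chromosome 16, where the fold was 21.89. None of the 5 border peaks with the most tags was among the 10 with the highest fold. Those 10 still had 75 to 95 tags, against an upper quartile of 29 over all border peaks.

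The 47 peaks with a gap on both sides had still lower medians. They had a median of 16 tags and a median fold of 16.04, and 8 of them (17.0%, interval 7.65 to 30.8) reached a fold of 26.06. That share was 21.6% over all border peaks and 30.7% over peaks at no border, and the interval holds both. Dark bands held 31 of the 47 (66.0%, interval 50.7 to 79.1), as against 45.9% of all 677 border peaks (42.1 to 49.8) and 16.7% of the autosomal peaks that bordered no gap. The 677 include the 47. Since the gaps themselves lay largely in dark bands, these shares follow in part from how gaps were chosen. After the peak of chromosome 2 named above, the highest folds among the 47 were 48.12 at 7175911 to 7176051 and 42.10 at 58743511 to 58743551, both on chromosome 16. The peak at 181776751 to 181776811 of chromosome 4 had 54 tags and a fold of 27.07 and stood between gaps of 5.90 and 2.46 Mb.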

How the data were processed

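The authors' deposited peak list for 1 pooled PROX1 ChIP library against 1 input library was used. Input enters only as the denominator of the fold. Per the submitters' processing notes, coordinates are on hg18. Aligner, peak caller, threshold and library depth are not given in the sources consulted. Without a header, the columns had to be identified by their values. The deposited tag counts are raw whole numbers, 13 at the lowest. The deposited fold behaves as a scaled ratio, ChIP tags over input tags, and the deposited p-value (highest 0.00099) was not used further. Input tags were inferred as tags times 1.0025 divided by the fold, which was whole within 0.02 for 91.6% of autosomal peaks. An inferred input of 1, found in 71.7%, may stand for 0 or 1 tags, and the tag count alone then sets the fold. Reads without molecular identifiers are not independent molecules, so intervals and the limit for a count of 0 (3 counts) cover counting error only.

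Gaps were taken from 22916 autosomal peaks. Bands came from the hg18 table of circlize 0.4.16, contig placements from IRanges 2.36.0 and chromosome lengths from GenomeInfoDb 1.38.1 (R 4.3.3). Band limits are approximate. Computation used Python 3.11.15 with numpy 2.4.6, scipy 1.17.1, pandas 2.3.3 and matplotlib 3.10.9. On simulated data the gap finder recovered 440 of 440 planted gaps, with 0 others. The gaps and the comparisons were chosen with earlier results of these data known. Named gaps were the 10 longest, the longest of each chromosome, the 10 with the most placed sequence and those next to 1 Mb. Named peaks were the border peaks with the highest folds or most tags and those between 2 gaps. Other named items were chosen after their values were seen. The alternatives changed the length limit, the list, the placed sequence, the bands called dark and the definition of a strong peak.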

Additional observations from a re-analysis of the deposited data

How the results depend on the processing

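The number of gaps followed the limit and the list. It was 1075 at a minimum of 0.5 Mb, 135 at 2 Mb and 695 with peaks left out that had no other within 10 kb, against 362 as reported. With those lone peaks left out, 692 gaps held 1 Mb of placed sequence. It was 534 with the 11458 peaks of higher fold only, 397 with chromosome X added (35 gaps over 59.8% of that chromosome) and 362 between peak centres. The longest gap overlapped the centromere on 4 chromosomes by placed sequence, against 13 as reported, and on 9 to 13 under the other alternatives. The share of gaps with mostly dark bases was 31.5% with gpos100 alone as dark, 65.5% with gpos50 added, 42.5% with the 11458 peaks of higher fold and 34.0% with lone peaks left out, against 50.8% as reported. It was 51.5% without chromosome 4, an alternative chosen after seeing the data. The share of strong peaks at borders was 15.4% with as many peaks taken by tag count (30.9% in other peaks), 0% at a fold of 100 (0.998%), 55.5% in the 11458 peaks of higher fold (61.4%) and 32.4% with lone peaks left out (35.6%), and so lay below that of other peaks each time. Lone peaks alone, also added afterwards, gave 19.9% (24.3%). Within peaks of 26 to 50 tags, added afterwards too, the share at borders was 73.4% (63.2%) and so lay above. No paired analysis was possible because each group has 1 library. The list gives no depth outside peaks, so a gap cannot be told from a place where tags fell short of the list.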
